A study of Mus musculus with 13 samples.

Results

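The nuclear genes of the mitochondrial respiratory chain were followed in endothelial cells (ECs) with and without Apelin, a secreted peptide ligand of ECs encoded by Apln. Genes were taken by symbol. They are all listed Ndufa, Ndufb, Ndufc, Ndufs and Ndufv genes with a number, the Cox genes numbered 4 to 8 with a letter a, b or c (which leaves out Cox4i1 and Cox4i2), the Sdha to Sdhd genes, and every symbol that starts with Uqcr or Atp5. This gave 81 genes over both sets of ECs, with 80 of 24984 listed genes in the tumor ECs and 80 of 24421 in the sprout ECs. Atp5mpl carries that symbol in the tumor ECs only and is listed as 2010107E04Rik in the sprout ECs, and Atp5sl in the sprout ECs is listed as Dmac2 in the tumor ECs.

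The tumor ECs were sorted as CD31+/CD105+ cells, 100 per library, from orthotopic tumors of E0771, a mouse mammary carcinoma line. The 3 KO libraries came from Apln-/- C57BL6/J mice that carried tumor cells with a short hairpin against Apln (shApln), and the 6 WT libraries from wild-type C57BL6/J mice that carried shRenilla cells, so host and tumor Apelin were removed together, and the deletion was present in every cell of the KO hosts. The sprout ECs were sorted as CD31+ cells from embryoid bodies that sprouted in collagen, grown from haploid-derived female mouse embryonic stem cells (C57BL/6x129) with a gene trap in Apln. In the 2 STOP libraries the trap lay in the sense direction, which stops the transcript, and in the 2 GO libraries it was in the antisense direction after Cre reversion. All 4 received VEGFA164 at 30 ng/ml from day 8, and the study's legends give 1000 nM of Apelin peptide for GO and DMSO for STOP, so genotype and added peptide cannot be told apart. Each replicate is a library; where nothing says that libraries came from separate animals or cultures, p-values measure only the spread between these libraries.

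The respiratory chain moves electrons from NADH (complex I) and succinate (complex II) through complex III to oxygen at complex IV, and complex V, the ATP synthase, uses the proton gradient that complexes I, III and IV build. Most subunits are encoded in the nucleus and the rest in the mitochondrial genome, whose genes were not analysed here. ECs draw much of their ATP from glycolysis, and the chain is known in them also for keeping up aspartate and nucleotide synthesis during growth. By symbol, 36 genes fell to complex I, 4 to complex II, 8 to complex III and 15 to complex IV and 17 to complex V, in each set. The symbols are older than some assignments. Ndufa4 is now placed with complex IV, and Atp5s and Atp5sl are ATP synthase genes by symbol only.

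Tumor libraries held 4661044 to 14455093 counts, and sprout libraries 12327030 to 16804071. A count of 3 corresponded to 0.211 to 0.596 CPM (counts scaled to a common, normalized library size) in the tumor ECs and to 0.177 to 0.244 CPM in the sprout ECs. Apln stood at 12.07, 8.513 and 2.437 CPM in the KO libraries and between 416.4 and 1033 CPM in the WT libraries. In the sprout ECs Apln stood at 66.1 and 80.17 CPM in STOP and at 58.17 and 65.94 CPM in GO (adjusted p = 0.367), so Apln did not pass the test, and both libraries labelled STOP stood above both labelled GO, against the direction the labels name. Directions below are given by library label. Summed CPM of 12 endothelial markers was 8480 to 14149 in the tumor libraries, against 7.04 to 926 for 10 leukocyte markers and 46.0 to 3457 for 8 mural and fibroblast markers. In the sprout libraries the 12 endothelial markers summed to 644.1 and 891.2 CPM in STOP and to 2565 and 2475 CPM in GO. All 12 were lower in STOP by the test, with a median log2 fold change of -1.96. The 10 pluripotency markers summed to 5837 and 5640 CPM in STOP and to 2249 and 3708 CPM in GO.

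The first question was how strongly each subunit is expressed in the sprout libraries. These also held the pluripotency markers given above, so the levels below cannot be assigned to ECs alone. Levels were compared between genes by TPM, a share of all transcripts corrected for transcript length, in the sprout libraries. All 80 genes together took 23898 to 28959 TPM per library. Cox7c, a small subunit of complex IV, had the highest level, at 3268 and 3526 TPM in STOP and 2190 and 2808 TPM in GO. Atp5b, the catalytic beta subunit of the ATP synthase, followed at 1366 and 1312 TPM in STOP and 1215 and 1208 TPM in GO. Atp5g2 and Atp5g3, which encode the same c-ring peptide, had mean levels of 801 and 742 TPM over the 4 libraries. These top levels belong to complexes IV and V, and the top gene of complex I, Ndufa7, reached a mean of 581 TPM.

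In complexes I and III the highest levels were those of accessory subunits. In complex I the core subunits Ndufs1 and Ndufv1, which carry iron-sulfur clusters and the NADH-binding flavin, had mean levels of 70.7 and 115 TPM. Core and accessory subunits overlapped in level there, since the accessory subunit Ndufa11 had a mean of 43.1 TPM. In complex III the core proteins Uqcrc1 and Uqcrfs1, the latter the Rieske iron-sulfur protein, had 209 and 140 TPM, and the small accessory subunit Uqcr10 had 462 TPM. The 4 genes of complex II, which also serves the TCA cycle, lay close together, from Sdhc at 132 TPM to Sdha at 182 TPM.

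Isoform genes differed widely in level in the sprout libraries, which also held the pluripotency markers given above, so these levels cannot be assigned to ECs alone. Cox6a1, Cox6b1, Cox7a2, Cox7b and Cox8a are the widely expressed forms, and had mean levels of 435, 537, 382, 499 and 568 TPM. Their muscle forms Cox6a2 and Cox8b had means of 0.290 and 0.0775 TPM, and the testis form Cox8c had 0.850 TPM. Other tissue forms were present in the sprout libraries, Cox7b2 at 3.49 to 15.4 TPM and another 2 at higher levels. Cox6b2, known as a testis form, had 250.7 and 213.4 TPM in STOP and 155.6 and 216.3 TPM in GO, and Cox7a1, a muscle form, had 91.4 and 111.2 TPM in STOP and 72.24 and 115.5 TPM in GO. By TPM both genes overlapped between STOP and GO, while by CPM Cox6b2 did not, with 88.38 and 74.63 in STOP and 46.02 and 71.75 in GO. In the tumor ECs Cox6b2 was at 3.399, 0.4925 and 0.1219 CPM in KO and from 0 to 1.645 CPM in WT, and Cox7a1 was at 9.176, 0.4221 and 0 CPM in KO and from 0 to 0.990 CPM in WT. Scaled per length by the same transcript lengths, 77 genes with a value in both sets ranked alike in WT tumor and sprout ECs (Spearman rho = 0.794 across genes, which share lengths and annotation).

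The level of some of these genes differed with how reads were counted. The sprout counts kept only reads with 1 place in the genome, and RSEM shared out reads with several places. Over 76 genes with at least 100 RSEM reads, the median ratio of unique to RSEM reads was 0.984, against 1.00 over 13817 genes of all kinds. The ratio was under 0.9 for 28 of the 76, against 21.4% of all those genes. Cox7c had a ratio of 0.00732, Atp5g2 of 0.00362, Atp5l of 0.00574 and Atp5g1 of 0.0258. Few of the reads that RSEM gave these 4 genes thus entered the sprout counts. Their CPM therefore rest on few reads, and Cox7c, first by TPM, stood at a mean of 7.03 CPM in STOP and 4.96 CPM in GO. The plot of unique against shared reads shows the 4 genes along its floor.

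**Figure D1:**
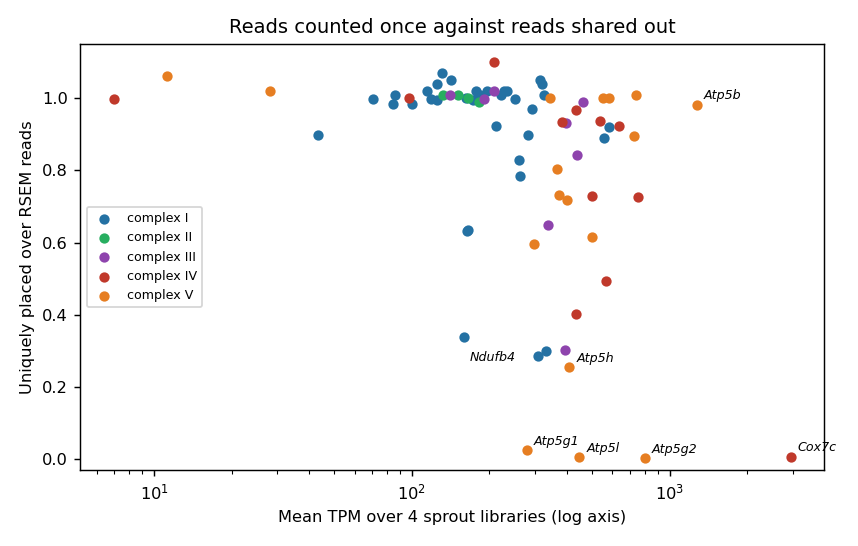
Mean TPM over the 4 sprout libraries (log axis) against the ratio of uniquely placed to RSEM reads, 1 point per gene, coloured by complex, for the 76 genes with at least 100 RSEM reads. Most points lie near 1, while Cox7c, Atp5g2, Atp5l and Atp5g1 lie at 0.0258 or below.

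The sprout ECs were compared next, to ask how the chain's genes differ between STOP and GO. In STOP, 3 genes rose and none fell by edgeR's quasi-likelihood test with an adjusted p under 0.05. They were Ndufa1 and Ndufb11, accessory subunits of the membrane arm of complex I, and Cox7b, a small subunit of complex IV. These are 3 of 76 genes tested, against 1.92% of all 14557 genes tested that were higher and 4.30% that were lower (6.22% together). At an unadjusted p under 0.05, 18 of the 76 were higher and 0 lower, against 12.4% and 14.3% of all genes. The total of 18 was 4 without STOP replicate 2, 5 without GO replicate 1 and 32 without GO replicate 2. By DESeq2 6 were higher and 0 lower, where 1724 genes of all kinds were called in either direction, against 905 by edgeR. All 3 genes lie on the X chromosome, and no autosomal gene of the chain passed.

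Ndufa1, at chrX:37187588-37191238 of GRCm38, had 86.41 and 97.19 CPM in STOP and 38.82 and 48.43 CPM in GO. The lowest STOP library stood above the highest GO library, and the groups differed by 1.07 on the log2 scale with a standard error of 0.163 (adjusted p = 0.0133). It was the only gene of the chain past an absolute log2 fold change of 1 as well, against 3.88% of all genes past both thresholds in either direction. Cox7b, at chrX:106015700-106022450, had 313.5 CPM in both STOP libraries and 153 and 188.9 CPM in GO, which is 0.87 on the log2 scale with a standard error of 0.150 (adjusted p = 0.0196). Ndufb11, at chrX:20615326-20617619, had 71.99 and 77.56 CPM in STOP and 44.48 and 41.16 CPM in GO, which is 0.80 on that scale with a standard error of 0.143 (adjusted p = 0.0222). In all 3 the groups did not overlap, as for 31.0% of all genes in this direction.

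With 2 libraries a group, these calls depended on single libraries. Without GO replicate 1 none of the 3 passed (adjusted p = 0.0562 for Ndufa1, 0.0755 for Cox7b and 0.0684 for Ndufb11). Without STOP replicate 1 only Ndufa1 passed, and without STOP replicate 2 Ndufa1 and Cox7b passed. Without GO replicate 2, 8 genes of the chain passed. Over all genes 182 were called without GO replicate 1 and 1434 without GO replicate 2, against 905 with all libraries. Over 11 alternatives set out for each, the log2 fold change stayed above 0. The adjusted p ran from 6.27e-06 to 0.0612 for Ndufa1, from 1.28e-05 to 0.100 for Cox7b and from 0.000554 to 0.105 for Ndufb11. The highest adjusted p of each gene came from edgeR with a replicate block, by which none of the 3 passed.

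The X chromosome moved as a whole in this comparison, a measure taken after the 3 genes' positions were seen. The median log2 fold change of 561 X-linked genes tested was 0.60, and that of each autosome lay between -0.09 and 0.07. Of the X-linked genes 147 rose and 8 fell, which is 26.2% higher, against 0.939% of 13958 autosomal genes. X-linked genes took 4.948% and 4.635% of the counts in STOP and 3.314% and 3.433% in GO. Among the X-linked genes Ndufa1 stood at the 82.4th percentile of fold change, Cox7b at the 73.8th and Ndufb11 at the 68.4th, so each lay above the X median, by 0.48, 0.28 and 0.20. Xist, the RNA that coats an inactive X, had 146.9 and 179.4 CPM in STOP and 193.7 and 96.45 CPM in GO, with overlap, and the Y-linked genes Ddx3y and Eif2s3y were at or near 0. The part of the X chromosome in the 3 calls was not tested. In the tumor ECs the X median was -0.01 over 411 genes, and the same 3 genes did not pass.

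**Figure D2:**
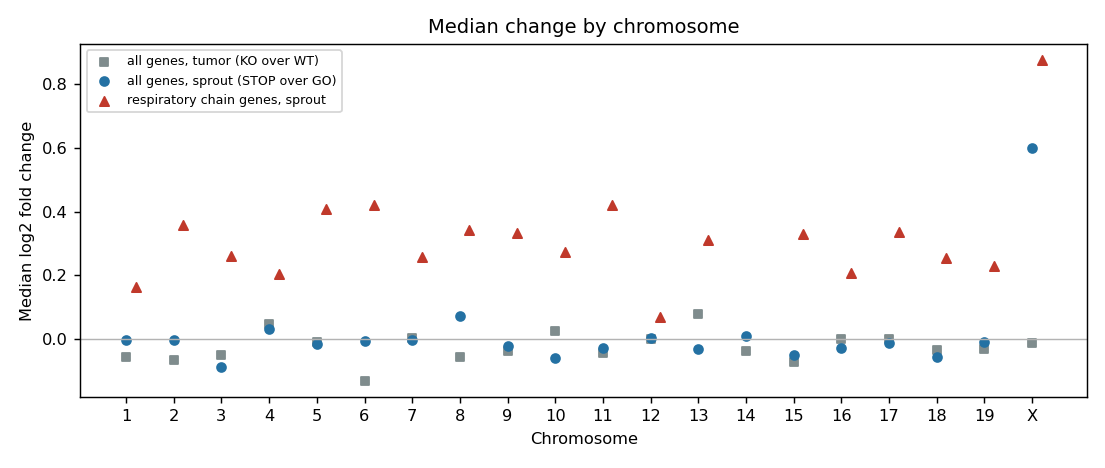
Median log2 fold change by chromosome for all genes in tumor ECs (grey squares, KO over WT), all genes in sprout ECs (blue circles, STOP over GO) and the respiratory chain genes in sprout ECs (red triangles; chromosome 14 holds none). The blue circles stay near 0 on chromosomes 1 to 19 and reach 0.60 on X, while the triangles lie above the circles on every chromosome that has one.

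The 250 bases before the start of the 3 genes are shown since these are the genes that passed, with that of Sdha, which carries several NRF1 matches. They are RefSeq sequences of GRCm38.p6, written 5′ to 3′ along the gene, with capitals for matches. Motifs were searched on both strands in 300 bases (250 before and 50 after the start) as GCGC, then any base, then TGCGC for NRF1, CCGGAAG for ETS factors such as GABP, AAGATGGCG for YY1 and CCAAT for the CCAAT box. NRF1, GABP and YY1 are known as regulators of nuclear genes for mitochondria.
Ndufa1 (chrX:37191239-37191488, minus strand): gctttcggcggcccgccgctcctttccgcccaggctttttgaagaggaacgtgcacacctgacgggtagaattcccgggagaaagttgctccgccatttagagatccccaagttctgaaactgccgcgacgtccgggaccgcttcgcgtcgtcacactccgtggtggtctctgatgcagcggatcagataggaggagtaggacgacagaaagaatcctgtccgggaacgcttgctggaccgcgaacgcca
Cox7b (chrX:106015450-106015699, plus strand): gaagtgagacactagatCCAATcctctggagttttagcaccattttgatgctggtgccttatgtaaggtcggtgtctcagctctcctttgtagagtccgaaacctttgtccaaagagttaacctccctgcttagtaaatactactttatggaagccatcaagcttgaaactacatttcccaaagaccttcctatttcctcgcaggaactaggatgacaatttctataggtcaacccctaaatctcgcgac
Ndufb11 (chrX:20617620-20617869, minus strand): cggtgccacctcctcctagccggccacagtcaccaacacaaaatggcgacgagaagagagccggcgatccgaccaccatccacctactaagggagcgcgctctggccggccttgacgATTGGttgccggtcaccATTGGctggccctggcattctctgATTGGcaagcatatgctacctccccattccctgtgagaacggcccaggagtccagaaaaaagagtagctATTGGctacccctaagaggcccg
Sdha (chr13:74350241-74350490, minus strand): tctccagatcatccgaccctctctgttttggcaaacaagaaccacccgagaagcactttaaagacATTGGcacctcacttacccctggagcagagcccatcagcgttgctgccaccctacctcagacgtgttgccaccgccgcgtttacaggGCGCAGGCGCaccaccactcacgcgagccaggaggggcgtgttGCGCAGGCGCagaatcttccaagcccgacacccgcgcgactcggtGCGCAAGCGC

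Of the 81 genes, 65 had a promoter entry. The NRF1 letters were in 17 of them (26.2%) against 5.19% of 27025 genes, the ETS letters in 16 (24.6%) against 9.93%, the YY1 letters in 7 (10.8%) against 1.64%, and CCAAT in 29 (44.6%) against 41.1%. No match of 1 motif overlapped a match of another in these genes. The 27025 genes were not matched to the chain for base composition. Sdha held 3 NRF1 matches and Ndufb11 held 4 CCAAT matches, and the windows of the 3 X-linked genes held none of the NRF1, ETS or YY1 letters. The start of Ndufa1 in RefSeq lies 75 bases from that in GENCODE, and its window moves with that choice. Genes with and without the NRF1 letters had median log2 fold changes of 0.28 (16 genes) and 0.31 (47 genes) in the sprout ECs, and those with and without the ETS letters 0.27 and 0.31. The median change of genes with NRF1 or ETS letters was thus close to that of genes without them.

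Beyond the 3 X-linked genes, most genes of the chain were slightly higher in STOP. The fitted log2 fold change was above 0 for 75 of 76 genes tested and below 0 for 1, against 50.5% and 49.5% of all genes, and its median was 0.28, against 0.01 over all genes. It was 0.182 without STOP replicate 2 and 0.183 without GO replicate 1. For 58 of 76 genes the lowest STOP library exceeded the highest GO library and for 0 the reverse held, against 31.0% and 29.6% of all genes. With the X-linked genes set aside, 72 of 73 autosomal genes were above 0, the median was 0.26, and 0 passed the test, with 15 at an unadjusted p under 0.05. The summed level of all genes of the chain was 11278 and 11917 CPM in STOP and 8842 and 10032 CPM in GO, a mean 22.9% higher in STOP. By TPM the total was 27138 and 28959 in STOP and 23898 and 25338 in GO, a mean 13.9% higher. The summed pluripotency markers moved with STOP and the summed endothelial markers against it, as given above, and their part in these values was not tested. Fewer cells of a type and less RNA per cell cannot be told apart in such bulk samples.

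**Figure D3:**
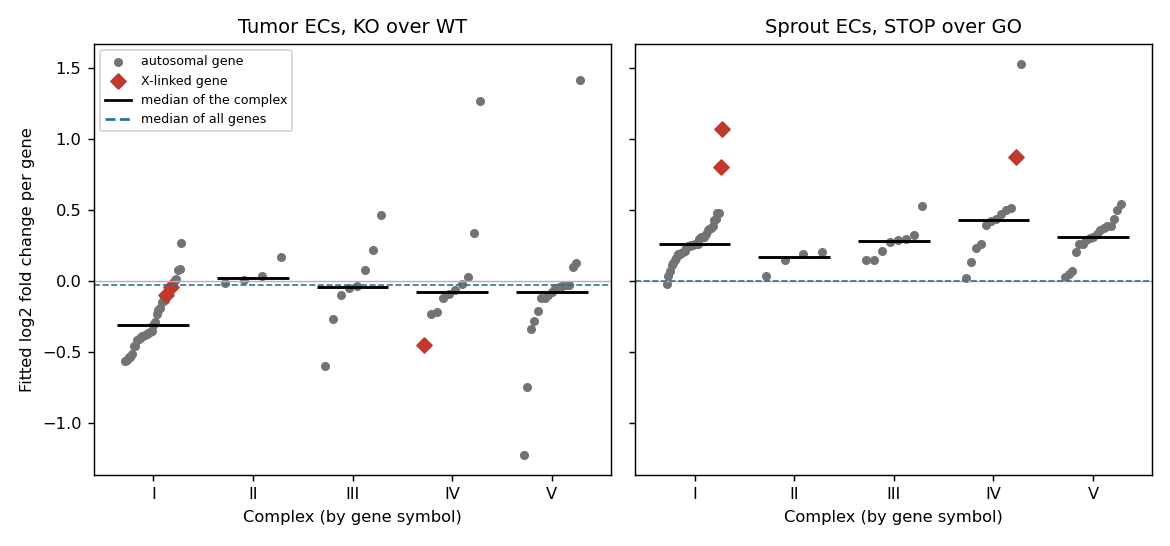
Fitted log2 fold change of each respiratory chain gene by complex, in tumor ECs (left, KO over WT) and sprout ECs (right, STOP over GO). Bars are medians of a complex, the dashed line is the median of all genes, and red diamonds are X-linked genes, which lie at 0.80 or more in sprout ECs and below 0 in tumor ECs.

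Complex IV had the highest median in STOP against GO, 0.43 over 12 genes. Its summed level was 1602 and 1644 CPM in STOP and 1074 and 1331 CPM in GO, with a mean 35.0% higher in STOP, and 9 of its 12 genes did not overlap, against 31.0% of all genes. By TPM, which includes the shared reads of Cox7c, complex IV summed to 8082 and 8491 for STOP against 6209 and 7250 for GO, a smaller relative difference. Cox5a, a matrix-side subunit of complex IV, had 302.3 and 320.7 CPM in STOP and 188.2 and 247.5 CPM in GO. Its log2 fold change of 0.52 (standard error 0.164) did not pass, at an adjusted p of 0.102. Cox7a2 and Cox8a had values of 0.44 and 0.42 and did not pass either, and Cox6b1 and Cox6a1 lay at 0.02 and 0.14. The testis form Cox7b2 had the largest fitted value, 1.53, from 1.693 and 5.621 CPM in STOP and 1.062 and 1.453 CPM in GO, with a standard error of 0.62.

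Complex I had a median of 0.26 over 35 genes, with 27 not overlapping in the STOP direction, against 31.0% of all genes. The median was 0.145 without STOP replicate 2 and 0.392 without GO replicate 2. Its summed level was 3256 and 3651 CPM in STOP and 2650 and 3021 CPM in GO, with no overlap. Accessory subunits had a median of 0.26 over 28 genes and core subunits of 0.19 over 7 genes. Ndufa4 had 166.3 and 188.8 CPM in STOP and 120.1 and 134.5 CPM in GO, a log2 fold change of 0.48 with an adjusted p of 0.0820. The core subunits Ndufs1 and Ndufv1 lay at 0.13 and 0.19 and did not pass.

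Complexes II, III and V had no gene past the test. Uqcr10 of complex III had the lowest p among the autosomal genes, with 136.7 and 158.4 CPM in STOP, 95.4 and 108.8 CPM in GO, a log2 fold change of 0.53 and an adjusted p of 0.0679. It passed in 2 of 11 alternatives, DESeq2 and no filter on low counts, and its adjusted p ran from 0.0204 to 0.297 over the 11. The core proteins Uqcrc1 and Uqcrfs1 lay at 0.15 and 0.22. In complex II the median was 0.17, with Sdha at 0.19 and Sdhb at 0.20, and 2 of 4 genes did not overlap, against 31.0% of all genes. By TPM complex II overlapped between the groups, with sums of 605.5 and 647.9 in STOP and 642.2 and 623.8 in GO, while the TPM sums of complexes I, III, IV and V did not.

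In complex V the median was 0.31 over 17 genes, and 13 did not overlap, against 31.0% of all genes. Atp5b had 1773 and 1745 CPM in STOP and 1345 and 1491 CPM in GO, a log2 fold change of 0.31 (95% interval -0.04 to 0.66). Atp5a1, the alpha subunit of the same head, had 1060 and 1042 CPM in STOP and 837.8 and 913.9 CPM in GO, a value of 0.26. Both head subunits thus had both STOP libraries above both GO libraries without passing the test. The c-ring genes Atp5g1, Atp5g2 and Atp5g3 lay at 0.55, 0.50 and 0.39, of which Atp5g1 and Atp5g2 rest on few unique reads. Atp5j2 of the membrane part had the lowest p of the complex, 0.0151 before adjustment, with a value of 0.44.

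**Figure D4:**
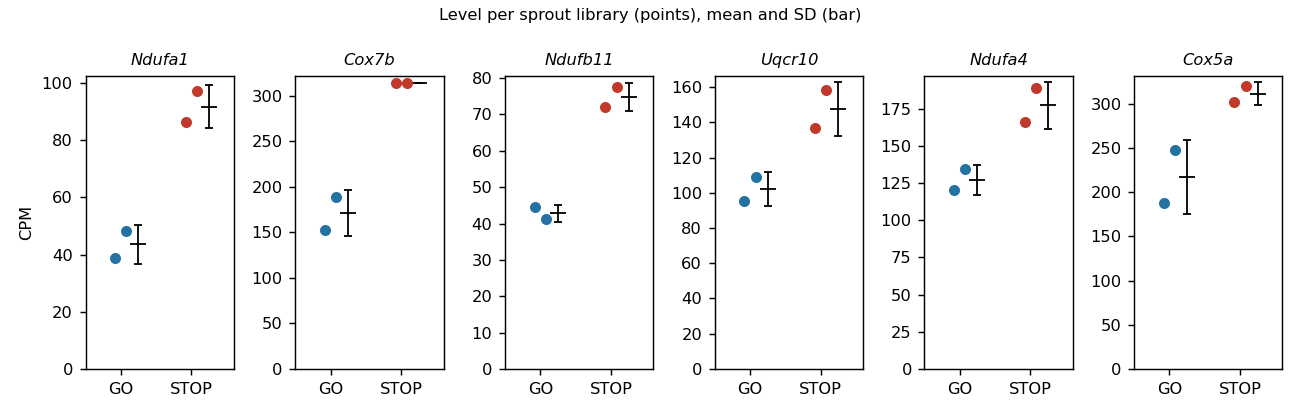
CPM per sprout library (points) with mean and SD (bar, n = 2) for the 3 genes that passed the test (Ndufa1, Cox7b, Ndufb11) and the next 3 by p (Uqcr10, Ndufa4, Cox5a). Both STOP points lie above both GO points in each panel, and the gap relative to the level is widest for Ndufa1.

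Other mitochondrial genes and the cytosolic ribosomal proteins were read beside the chain in STOP against GO. Of 17 TCA cycle genes 2 rose, against 1.92% of all genes, and both are X-linked, where the share was 26.2%. Idh3g, the gamma subunit of isocitrate dehydrogenase, had 251.8 and 236.7 CPM in STOP and 121.1 and 151.8 CPM in GO (log2 fold change 0.84, adjusted p = 0.0237). Pdha1, of the pyruvate dehydrogenase complex that feeds the cycle, had 280.6 and 272.4 CPM in STOP and 168.0 and 188.2 CPM in GO (0.63, adjusted p = 0.0361). Of 46 assembly factors of the chain none passed, and their median was 0.12. Of 77 mitochondrial ribosomal proteins none passed, 68 lay above 0 and the median was 0.23. Of 76 cytosolic ribosomal proteins 4 rose (Rpl10l, Rps7, Rps27l and the X-linked Rps4x), against the same 1.92%, with a median of 0.24, so a median of this size was also seen outside the chain.

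Regulators of mitochondrial biogenesis did not pass in STOP against GO. Nrf1 had 83.5 and 84.81 CPM in STOP and 63.72 and 63.36 CPM in GO, a log2 fold change of 0.41 (adjusted p = 0.106). Pprc1, Gabpa, Tfam, Tfb1m, Esrra, Ppargc1b, Polrmt and Yy1 lay between 0.06 and 0.48, and Gabpb1, Tfb2m and Ppargc1a between -0.34 and -0.13. Myc, a driver of growth and of many mitochondrial genes, had 15.91 and 17.76 CPM in STOP and 35.16 and 25.91 CPM in GO (-0.86, adjusted p = 0.0575). Myc was past the threshold in 3 of 11 alternatives, DESeq2, no filter and without GO replicate 2. Its value lay on the other side of 0 from the median of the chain.

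Isoforms and mitochondrial genes linked to low oxygen did not pass either. Cox4i2, the hypoxia form of a complex IV subunit, had 3.183 and 6.355 CPM in STOP and 10.8 and 6.295 CPM in GO (-0.85, adjusted p = 0.245). Its widely expressed form Cox4i1 had 419.3 and 508.4 CPM in STOP and 364.9 and 412.8 CPM in GO (0.25). Ndufa4l2, Lonp1, Higd1a, Pdk1 and Bnip3 lay between 0.09 and 0.25, and Isca2 at -0.13.

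The tumor ECs were compared to ask how the same genes differ between KO and WT. None of 74 genes tested passed by edgeR, against 0.00765% of 13073 genes that were lower (1 gene, Apln) and 0% that were higher. At an unadjusted p under 0.05 there was 1 lower and 0 higher, against 2.94% and 1.87% of all genes (4.81% together), and DESeq2 and limma voom called 0. The widths of the intervals limit this result. For Atp5b the 95% interval of the log2 fold change was -0.63 to 0.55, which holds both 0 and the sprout value of the same gene, 0.31.

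Atp5g1, a c-ring gene of complex V, was the gene with an unadjusted edgeR p under 0.05 (0.0291). It had 10.2, 14.42 and 13.53 CPM in KO, and in WT a lowest value of 16.2, a median of 28.2 and a highest of 51.4 CPM. All KO libraries lay below all WT libraries, as for 1.27% of all genes, and edgeR gave a log2 fold change of -1.23 with a standard error of 0.511 (adjusted p = 0.986 by edgeR). It kept its direction in all 16 alternatives, with adjusted p from 0.206 to 1.00. In the sprout libraries few of the reads that RSEM gave Atp5g1 entered the counts. Atp5g2 lay at -0.75 (standard error 1.33) from 0.347 to 2.92 CPM in WT, and Atp5g3, which holds most of the c-ring counts, at -0.11 with 278.5, 147 and 299.5 CPM in KO and 177 to 305 CPM in WT.

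Summed levels overlapped between KO and WT for every complex. All genes of the chain together gave 12964, 11920 and 16407 CPM in KO, and 11602 to 20441 CPM with a median of 14326 in WT. Complex I gave 4697, 4193 and 6322 CPM in KO and 4522 to 9504 CPM with a median of 5409 in WT. The library that reached 9504 CPM, WT replicate 5, had the highest level of the 6 for 22 of the 35 complex I genes tested, and the fewest genes detected among the tumor libraries, 13466. Ndufb8, a complex I accessory subunit, had 1250 CPM there and 246.6 to 522.9 CPM in the other 5. The part of that library in the complex I values below can be read from the fit without it.

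**Figure D5:**
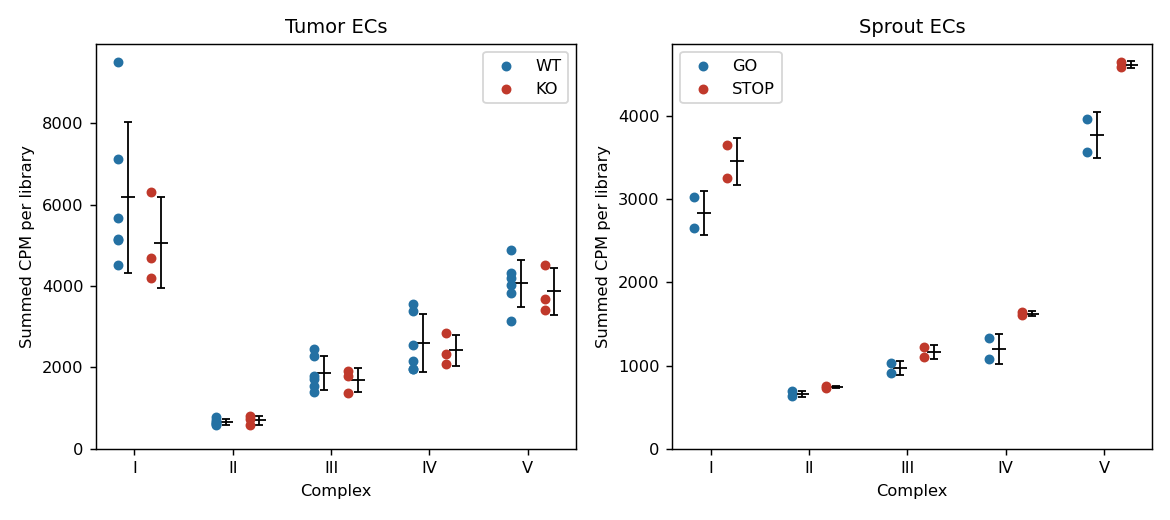
Summed CPM of the genes of each complex per library (points) with mean and SD (bar), in tumor ECs (left; WT n = 6, KO n = 3) and sprout ECs (right; GO n = 2, STOP n = 2). KO and WT points overlap in every complex, the highest WT point of complex I is 9504 CPM, and STOP points lie above GO points in each complex.

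Complex I had the lowest median in KO against WT, -0.31 over 35 genes, with 30 below 0 and 5 above, against 51.9% and 48.1% of all genes. Without WT replicate 5 the median was -0.08 and 23 of 35 lay below 0, without KO replicate 2 it was -0.18, and without KO replicate 3 it was -0.46. With limma voom it was -0.169, and with a replicate block -0.0212, with 18 of 35 below 0. Mural and fibroblast markers also lay below 0 in KO, 7 of 7 tested with a median of -2.10 and none called. Their sum was 3457 CPM in WT replicate 2, 46.0 to 249.8 CPM in the other 5 WT libraries and 64.4 to 183.5 CPM in KO. Endothelial markers lay the other way, 11 of 12 above 0 with a median of 0.33 and none called, and the part of either list was not tested. Ndufc2, a subunit of the membrane arm, had the lowest p of the complex among genes below 0, with 66.78, 94.62 and 109.3 CPM in KO and 102 to 174 CPM in WT (-0.53, standard error 0.308). Ndufb4 had the lowest p above 0, at 0.27 with a standard error of 0.736. Of the core subunits, Ndufs1 lay at -0.35 and Ndufv1 at -0.38, and neither passed.

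The other complexes lay closer to 0. Over all 74 genes the median was -0.12, against -0.03 over all genes, and 57 lay below 0. The median was -0.0409 with 43 below 0 without WT replicate 5, -0.3 without KO replicate 3, and 0.0476 with 32 below 0 with a replicate block. Complex II had a median of 0.02, with Sdha at 0.04, Sdhb at 0.17 and Sdhc at -0.01. Complex III had a median of -0.04. Uqcrq, a small accessory subunit, was at -0.60 from 362.3, 223.7 and 250.4 CPM in KO and 269 to 693 CPM in WT, and Uqcrb at 0.46. Uqcrc1 and Uqcrfs1 lay at -0.03 and 0.08.

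Complex IV had a median of -0.08 over 10 genes, and complex V of -0.07 over 17 genes. Cox7b had the lowest p of complex IV, with 131, 98.49 and 131.6 CPM in KO and 114 to 199 CPM in WT (-0.45, standard error 0.286). Cox5a, Cox6a1, Cox6b1, Cox7a2 and Cox8a lay between -0.12 and 0.03, and the sparse Cox6b2 at 1.27 with a standard error of 1.72. In complex V Atp5a1 and Atp5b lay at 0.13 and -0.04, and Atp5s at 1.42, where KO replicate 1 had 34.84 CPM and the other 8 tumor libraries 1.39 to 12.3 CPM. No gene of either complex passed.

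There were 6 genes with too few counts to test in the tumor ECs, namely Cox6a2, Cox7a1, Cox7b2, Cox8b, Cox8c and Ndufs5, and 4 in the sprout ECs, namely Cox6a2, Cox8b, Cox8c and Ndufs5. Ndufs5, an accessory subunit of complex I, was at 0 CPM in all 4 sprout libraries and at 0 to 0.365 CPM in the tumor libraries. Its TPM was 0 in 3 sprout libraries and 3.79 in GO replicate 1. Whether Ndufs5 has a low level or loses its reads in counting was not tested. Cox8c was at 0 in all 9 tumor libraries, which allows up to 0.596 CPM in the least deep library, by counting error alone.

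The related lists did not pass in KO against WT. None of 78 mitochondrial ribosomal proteins, 45 assembly factors and 17 TCA cycle genes was called, and their medians were -0.17, -0.18 and -0.18. Among the biogenesis regulators Esrra lay lowest at -0.87 and Ppargc1b highest at 1.11, with Myc at 0.46 (-0.55 without KO replicate 1), Nrf1 at 0.61, Tfb1m at 0.39 and Pprc1 at 0.01. Gabpa, Gabpb1, Tfam, Tfb2m, Polrmt and Yy1 lay between -0.49 and -0.04, and Ppargc1a was too sparse to test. Over the alternatives Esrra, Nrf1, Polrmt, Tfam and Tfb1m kept their direction and the other 7 did not, Ppargc1b running from -0.123 to 2.46. Of the hypoxia-linked genes Bnip3, a mitophagy receptor, had an unadjusted p of 0.0246 (adjusted p = 0.981), from 167.6, 7.528 and 27.66 CPM in KO and 9.03 to 36.1 CPM in WT. Its log2 fold change of 1.67 rests on KO replicate 1, which also had the highest leukocyte marker sum, 926 CPM; the part of those cells was not tested. Cox4i1, Cox4i2, Lonp1 and Pdk1 lay between -0.64 and -0.26, and Ndufa4l2, Higd1a and Isca2 at 1.06, 0.18 and 0.36. Over the alternatives Cox4i2 ran from -1.43 to 4.75, Bnip3 from -0.27 to 2.19, Higd1a from -0.227 to 0.465 and Ndufa4l2 from 0.0484 to 3.59, so the first 3 of these changed direction.

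Finally, the change in tumor ECs was set against that in sprout ECs by an interaction term over all 13 libraries. None of 75 genes of the chain passed by edgeR, against 0.00634% of 15762 genes, with 2 at an unadjusted p under 0.05, against 4.88% of all genes. Cox7b had the lowest p, with a tumor minus sprout difference of -1.37 in log2 fold change and a standard error of 0.420 (adjusted p = 0.491 by edgeR), and Ndufa1 followed at -1.16 (adjusted p = 1.00). By limma voom with a variance for each set, Cox7b was the 1 gene of the chain among 155 genes of all kinds that passed. The 2 sets differ in tissue, sort, library protocol and depth, so their changes are given side by side. By edgeR a difference between the changes was shown for no gene of the chain.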

How the data were processed

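RNA was sequenced from 9 tumor EC libraries (3 KO, 6 WT) and 4 sprout EC libraries (2 STOP, 2 GO), grouped by the submitters' labels. The tumor counts were deposited by the authors as whole reads per gene from featureCounts (Subread 1.6.2). Their processing notes also list Bowtie2 2.3.4.1, Trim Galore 0.5.0 and SAMtools 1.9, while the study's methods name STAR for these libraries, and which aligner made the table was not settled. The sprout counts were deposited by the authors from HTSeq 0.6.1p1 after STAR 2.5.0a and hold uniquely placed reads, so genes with near-identical copies lose reads. Its 5 tally lines, which name no gene, were left out, and reads not placed uniquely came to 42.6% to 49.6%. The authors also deposited RSEM 1.2.25 expected counts, TPM and FPKM values, the last of which were not used. The build was mm10 (GRCm38), and coordinates are from RefSeq GRCm38.p6.

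Counts were tested with edgeR 4.0.16 in R 4.3.3 by robust quasi-likelihood fits with TMM scaling, after filterByExpr with a minimum count of 10, within each set, and over both sets for the difference of changes. P-values are two-sided, Benjamini-Hochberg adjusted over all genes tested, and called under 0.05. A second rule also asked for an absolute log2 fold change over 1. Standard errors are the log2 fold change over the root of the F statistic, and 95% intervals use the quasi-likelihood degrees of freedom. CPM are counts scaled to TMM-adjusted library sizes, and intervals and floors of 3 counts cover counting and model error only. Alternatives were DESeq2 1.42.0, limma 3.58.1 voom, other scalings and filters, rounded RSEM expected counts, a replicate block and leaving out each library. Fits were tested on simulated data. Python 3.11.15, pandas 2.3.3 and matplotlib 3.10.9 were used for promoters and plots.

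The genes and all lists were chosen with earlier results of these data known. Genes were named by rule: core subunits, subunits with several isoform genes, the lowest p in each direction per complex, up to 10 called genes per direction, untestable genes, and each hypoxia-linked and biogenesis gene. Ndufa7, Ndufa11, Ndufb8, Uqcr10 as a level, Cox7c, Atp5l, and called genes of the ribosomal and TCA lists were named after their values were seen. The values of 1 gene the rule names are not reported here.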

Additional observations from a re-analysis of the deposited data

Results flagged for a closer look

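Among 51 sets of 6 WT tumor libraries tested for a library far from the others, 7 had a highest library whose gap to the next, relative to the whole range, exceeded Dixon's 95% critical value for 6 samples, and chance alone flags about 1 in 20. All 7 are related genes outside the respiratory chain list, and none was called between KO and WT. In WT replicate 3, Esrra, a nuclear receptor that drives mitochondrial genes, stood at 57.36 CPM against 24.62 CPM in the next library. In the same library Gabpa and Gabpb1, the subunits of the GABP factor, stood at 80.64 CPM against 30.58 CPM and at 116.5 CPM against 40.44 CPM, and Tfb1m, which acts on mitochondrial ribosomal RNA, at 5.206 CPM against 0.9926 CPM. In WT replicate 5, the library with the highest complex I sum, Cox4i2 stood at 11.64 CPM against 1.414 CPM, Ndufa4l2 at 17.02 CPM against 4.788 CPM and the coactivator Ppargc1b at 5.559 CPM against 1.985 CPM. Cox4i2, Ndufa4l2, Ppargc1b and Tfb1m were sparse, with WT libraries at or near 0.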

How the results depend on the processing

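In the tumor ECs the count of respiratory chain genes called stayed at 0 in both directions under every alternative run, 9 left-out libraries included. Their median log2 fold change was -0.3 to -0.0409 over the left-out libraries and turned to 0.0476 with a replicate block. In the sprout ECs no gene was lower under any alternative. The count higher was 6 by DESeq2 and 6 with no filter on low counts, the same genes in both (Ndufa1, Cox7b, Ndufb11, Cox5a, Ndufa4 and Uqcr10), 0 with a replicate block, 0 with X-linked genes left out before normalization, and 0 to 8 over the left-out libraries. The count past the fold threshold as well was 0 with the block, 0 with rounded RSEM expected counts, 0 without X-linked genes and 0 to 2 over the left-out libraries. The median was 0.182 to 0.398 over them. RSEM counts called Ndufa1, Cox7b and Ndufb11, as the unique reads did. The difference between sets gave 1 gene of the chain, Cox7b, among 155 of all genes by limma voom with a variance for each set. The cause of these changes was not tested, other than that leaving out X-linked genes removes the 3 called genes themselves.

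The replicate numbers did not pair the samples. Deviations of same-numbered libraries correlated at -0.0709, 0.0574 and -0.14 in the tumor ECs, where 0 of 3 KO libraries correlated best with their own number, and at -0.434 in the sprout ECs. With the replicate block all genes called in the sprout ECs went from 905 to 44, and with crossed numbers, added after seeing the data, to 3600, with 16 respiratory chain genes higher. By DESeq2 1724 genes were called. In the tumor ECs 1 gene was called, against 116 by DESeq2 and 16 with no filter. Groups of 2 and of 3 libraries and 100 cells per tumor library limit what could be detected.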

Other observations

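Respiratory chain genes with symbols outside the rule were read in the same fits. Of 9 tested in each set none was called, with medians of 0.13 in STOP against GO and -0.16 in KO against WT. Usmg5, a small subunit of the ATP synthase membrane part, had a log2 fold change of 0.73 in the sprout ECs and did not pass. Cytosolic ribosomal proteins had a median of -0.21 in KO against WT, with 61 of 74 below 0 and none called.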
